A study of Mus musculus with 8 samples.

Results

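The interferon regulatory factors (IRFs) are described here through 8 genes, Irf1, Irf2, Irf3, Irf4, Irf5, Irf7, Irf8 and Irf9, in sorted mouse blood monocytes (MCs) of control (CT), type 1 diabetic (T1DM) and type 2 diabetic (T2DM) mice. The members were defined by gene symbol, with no measured value in the rule, though earlier results of these data were known when the family was picked, and all 8 were among the 16486 genes with a deposited value.

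IRFs are transcription factors that share a tryptophan-rich DNA-binding domain and bind GAAA repeats in the promoters of interferon and interferon-stimulated genes. Irf3, Irf5 and Irf7 act below Toll-like and cytosolic nucleic acid receptors and switch on interferon and cytokine genes, whereas Irf9 is the DNA-binding subunit of the complex ISGF3, which reads the signal of the type I interferon receptor. Irf1 is an activator induced by interferon gamma, Irf2 competes with it at shared sites, and Irf4 and Irf8 work with partners such as PU.1 (Spi1) in the development of MCs, dendritic cells and B cells. In blood, Ly6Chigh MCs are the classical and Ly6Clow MCs the nonclassical, patrolling subset.

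The CT group was C57/BL6. The T1DM group was of the same strain and received streptozotocin (STZ), a toxin of pancreatic beta cells, by injection of 50 mg/kg daily over 5 days, begun at the age of 8 weeks. T2DM mice were db/db mice, which carry a mutation of the leptin receptor gene in all tissues and are obese as well as diabetic. The study does not name the background strain of the db/db mice. All mice were male, ate chow and were bled at 20 to 22 weeks of age, and RNA of MCs sorted as CD11b+Ly6G-Ly6Chigh or CD11b+Ly6G-Ly6Clow cells was pooled from 5 mice per group. Each library was RNA-Seq of such a pool. There were 2 CT libraries of each subset, which the study describes as duplicates. In the test within CT mice, p-values measure the spread between these libraries, which may be technical. Over the mouse groups, the spread also holds how the subset difference varied between them. With T1DM and T2DM as 1 diabetic group, it also holds how the models differed. The study describes duplicates for every group, but T1DM and T2DM were analysed here with 1 library of each subset, and a difference that involves them has no replicate check. CT libraries came from a NextSeq 500 and diabetic libraries from a HiSeq 4000, and sequencer and diabetes cannot be told apart.

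The deposited values are normalized log2 expression values without counts, so the read depth behind each value is unknown and the gap between the CT duplicates is the only measure of precision. On the linear scale the libraries summed to between 838696 and 1090019. Values were compared between libraries and never between genes, because the files do not say whether they are per length. The labelled subsets were checked with marker lists. Of 10 classical MC markers, 7 were called higher in Ly6Chigh MCs over the mouse groups and none lower. Of all genes 5.37% were called higher and 12.1% in either direction. The summed level of the 10 classical markers ran from 13.46 to 14.82 (log2) in Ly6Chigh and from 10.14 to 10.57 in Ly6Clow libraries. Of 10 nonclassical markers, 5 were called lower in Ly6Chigh MCs over the mouse groups and none higher, and 2 were called lower in CT mice alone. Their summed level ran from 10.55 to 11.55 in Ly6Chigh and from 11.68 to 12.10 in Ly6Clow libraries. In CT mice the nonclassical markers Cx3cr1 (log2FC 0.83), Itgal (0.25) and Nr4a1 (0.18) leaned higher in Ly6Chigh MCs. The classical markers S100a8 (-0.70) and S100a9 (-1.39) leaned lower in Ly6Chigh MCs of CT mice. All of these are named here after their values were seen. Markers of other cells were found too, B cell and NK cell markers mainly in the Ly6Clow libraries. All 12 B cell markers were called lower in Ly6Chigh MCs, with a summed level of 12.08 to 12.44 in Ly6Clow and of 8.11 to 9.14 in Ly6Chigh libraries, and 7 of 8 NK cell markers were called lower as well (7.13 to 9.71 against 4.59 to 6.77). In these bulk samples fewer cells of a type and less RNA per cell cannot be told apart. The part of B cells and NK cells in the subset differences of the Irf genes was not tested.

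In the GENCODE M21 annotation of mouse build GRCm38, the members were Irf1 (chr11:53770014-53778374, plus strand), Irf2 (chr8:46739732-46847458, plus), Irf3 (chr7:44997648-45002848, plus), Irf4 (chr13:30749226-30766976, plus), Irf5 (chr6:29526625-29541871, plus), Irf7 (chr7:141262706-141266481, minus), Irf8 (chr8:120736358-120756694, plus) and Irf9 (chr14:55603571-55610030, plus). All 8 are protein-coding genes, and their values cover whole genes. Kallisto assigns reads by short sequences, and the share of a member's 31-base sequences that also occur in another gene's transcripts was 0% for Irf4 and Irf8, 0.174% for Irf2, 0.361% for Irf7, 1.66% for Irf3, 2.19% for Irf1 and 4.82% for Irf9. Irf5 had the highest share, 12.3%, all of it with Tnpo3, a nuclear import receptor gene that overlaps it on the other strand. Irf5 reads in that stretch cannot be told from Tnpo3 reads if strand was not used, which the sources used here do not say.

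Promoters are printed for the members with a match to an interferon-related motif (Irf1, Irf2 and Irf8) and for Irf7, the member that differed most between the subsets. Each is the reference sequence upstream of all annotated transcript starts within the window from 250 bases before to 50 bases after the RefSeq start (assembly GRCm38.p6), 5′ to 3′ on the gene's strand. Capitals mark matches to the ISRE core bound by IRFs and ISGF3 (GAAA and GAAA with 2 bases between them), the ETS-IRF composite element (EICE, GGAA and GAAA with 2 bases between them) bound by PU.1 with Irf4 or Irf8, or the GAS element TTCNNNGAA bound by STAT dimers, searched on both strands.
Irf1 (chr11:53769764-53770013): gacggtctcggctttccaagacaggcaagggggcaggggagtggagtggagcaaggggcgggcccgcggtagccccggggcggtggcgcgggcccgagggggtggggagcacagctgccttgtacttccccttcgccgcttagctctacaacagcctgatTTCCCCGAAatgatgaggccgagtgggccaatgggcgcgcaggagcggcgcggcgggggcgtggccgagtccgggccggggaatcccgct
Irf2 (chr8:46739495-46739731): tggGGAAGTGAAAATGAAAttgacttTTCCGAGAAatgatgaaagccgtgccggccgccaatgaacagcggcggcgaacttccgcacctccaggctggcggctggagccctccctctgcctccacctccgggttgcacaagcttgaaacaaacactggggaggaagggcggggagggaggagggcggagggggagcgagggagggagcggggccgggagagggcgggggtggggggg
Irf7 (chr7:141266500-141266674): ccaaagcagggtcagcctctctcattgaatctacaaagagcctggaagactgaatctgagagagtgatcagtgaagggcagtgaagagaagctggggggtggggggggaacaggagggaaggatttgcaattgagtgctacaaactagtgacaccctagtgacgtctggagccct
Irf8 (chr8:120736108-120736357): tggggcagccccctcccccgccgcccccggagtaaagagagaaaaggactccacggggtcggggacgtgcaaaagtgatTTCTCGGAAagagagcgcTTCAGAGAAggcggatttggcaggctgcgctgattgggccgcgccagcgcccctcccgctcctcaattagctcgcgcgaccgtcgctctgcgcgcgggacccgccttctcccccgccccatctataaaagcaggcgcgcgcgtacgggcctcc
Counted from the RefSeq start, Irf1 held 1 GAS match (TTCCCCGAA at -90) and Irf8 held 2 (TTCTCGGAA at -171 and TTCAGAGAA at -153). Irf2 held 1 ISRE core (GAAAATGAAA at -241) that overlapped 1 EICE (GGAAGTGAAA at -247), and 1 GAS (TTCCGAGAA at -224). The 11 windows of the members covered all 8 genes, and no match was found in those of Irf3, Irf4, Irf5, Irf7 and Irf9. The windows of Irf5 and Irf9 held no bases upstream of all annotated starts, so such a stretch was not searched for them. Among 32851 mouse promoter windows of the same length, 8.30% held a GAS, 3.44% an ISRE core and 2.72% an EICE. A match describes letters and no binding was measured here.

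Which IRFs differ between the MC subsets was asked first. Irf7, the amplifier of the type I interferon response, was 5.15-fold higher in Ly6Chigh than in Ly6Clow MCs of CT mice, and it was the member with the largest difference. Irf9, Irf5, Irf1 and Irf8 leaned the same way by smaller amounts, Irf3 leaned to Ly6Clow MCs, and Irf2 and Irf4 differed by less than the wider gap between CT duplicates. With the study's limits, genes were called where the limma adjusted p (Benjamini-Hochberg over 16486 genes) was under 0.01 and the log2FC beyond 1 in either direction. In CT mice 1 of 8 members was called, against 3.52% of all genes.

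**Figure D1:**
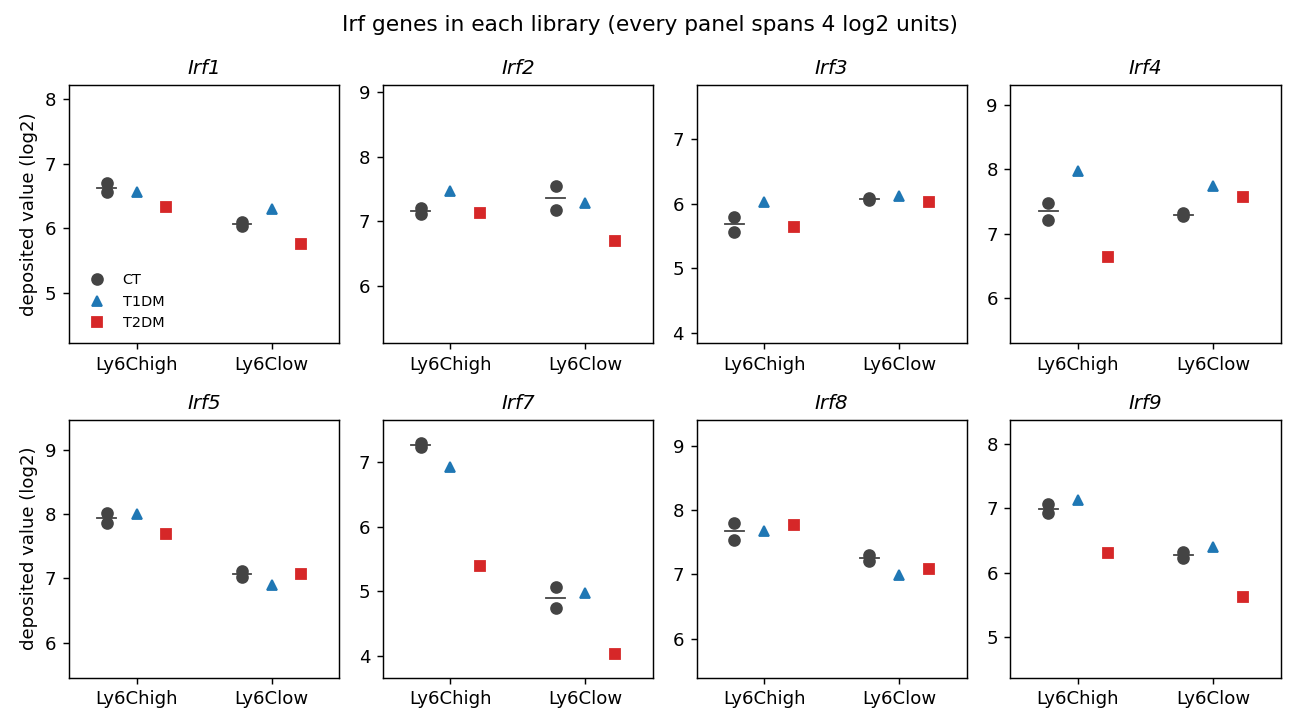
Deposited log2 value (y axis, 4 log2 units in every panel) of each of the 8 Irf genes in Ly6Chigh and Ly6Clow MCs. Each point is 1 library (circles CT with a line at the mean of 2, triangles T1DM, squares T2DM), and in Irf7 the T2DM Ly6Chigh point at 5.39 sits far below the other Ly6Chigh points at 6.92 to 7.30.

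Irf7 was at 7.23 and 7.30 (log2) in the CT Ly6Chigh libraries and at 4.74 and 5.06 in the CT Ly6Clow libraries. It was at 6.92 and 4.97 in T1DM Ly6Chigh and Ly6Clow MCs, and at 5.39 and 4.02 in T2DM. As deposited, all 4 Ly6Chigh libraries were above all 4 Ly6Clow libraries, and the lowest Ly6Chigh value was that of T2DM. In CT mice its log2FC was 2.36 (SE 0.14, limma adjusted p = 0.00662). Over the mouse groups, with mouse group as covariate, the log2FC was 2.01 (SE 0.18, limma adjusted p = 5.76e-05). When 1 CT library was left out, the lone library being taken to vary like the other subset, the CT log2FC was 2.20 to 2.52 and its adjusted p 0.0633 to 0.0872, in fits that called 0 of 16486 genes. With replicate number as a block the adjusted p was 0.0305, again with 0 genes called. The call over the mouse groups stood in each alternative tried.

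Irf9, the DNA-binding subunit of ISGF3, was at 7.06 and 6.92 in CT Ly6Chigh and 6.23 and 6.33 in CT Ly6Clow libraries. In T1DM it was at 7.12 and 6.39, and in T2DM at 6.30 and 5.62, in Ly6Chigh and Ly6Clow MCs. Ly6Chigh was the higher subset in each mouse group by nearly the same amount (CT 0.71, T1DM 0.73 and T2DM 0.68), but the subsets overlapped because the T2DM Ly6Chigh library lay below the T1DM Ly6Clow and the second CT Ly6Clow library. The log2FC over the mouse groups was 0.71 (SE 0.09, limma adjusted p = 0.000476). Of its 31-base sequences 4.82% (266) occur in other genes, of which 93 are in the neighbour Rnf31, a ubiquitin ligase subunit gene whose log2FC was 0.51 (SE 0.17, limma adjusted p = 0.0459).

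Irf5, the factor that drives inflammatory cytokine genes below Toll-like receptors, was at 8.02 and 7.86 in CT Ly6Chigh and at 7.02 and 7.12 in CT Ly6Clow libraries. T1DM values were 7.99 and 6.90, and T2DM values 7.69 and 7.08, again for Ly6Chigh and Ly6Clow MCs. The subsets did not overlap. The log2FC was 0.87 in CT mice (SE 0.09, limma adjusted p = 0.0136) and 0.86 over the mouse groups (SE 0.10, limma adjusted p = 0.000261). Tnpo3, with which Irf5 shares sequence, had a log2FC of -0.14 over the mouse groups (SE 0.12, limma adjusted p = 0.422).

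Irf1, itself induced by interferon gamma, was at 6.56 and 6.69 in CT Ly6Chigh, 6.09 and 6.03 in CT Ly6Clow, 6.57 and 6.30 in T1DM, and 6.32 and 5.75 in T2DM libraries of Ly6Chigh and Ly6Clow MCs. Irf8, which the MC lineage needs to develop, was at 7.80 and 7.53 in CT Ly6Chigh, 7.30 and 7.21 in CT Ly6Clow, 7.67 and 7.00 in T1DM, and 7.76 and 7.09 in T2DM libraries. As deposited, every Ly6Chigh library exceeded every Ly6Clow library in both genes. The log2FC over the mouse groups was 0.49 for Irf1 (SE 0.10, limma adjusted p = 0.00621) and 0.54 for Irf8 (SE 0.10, limma adjusted p = 0.00322). Both lost an adjusted p under 0.01 in several alternatives, for instance 0.162 and 0.0786 when the libraries were scaled to equal totals. B cells and dendritic cells also express Irf8, and their markers were higher in the Ly6Clow libraries in which Irf8 was lower (a median log2FC over the mouse groups of -4.23 for 12 B cell and of -1.17 for 7 conventional dendritic cell markers). The part of those cells in the Irf8 values was not tested.

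Irf3, which is present in resting cells and acts first after sensing of nucleic acid, had the opposite sign. It was at 5.80 and 5.57 in CT Ly6Chigh, 6.07 and 6.09 in CT Ly6Clow, 6.04 and 6.12 in T1DM, and 5.65 and 6.02 in T2DM libraries. The T1DM Ly6Chigh value lay within the range of the Ly6Clow values, and the log2FC over the mouse groups of -0.31 (SE 0.11, limma adjusted p = 0.0635) did not pass the threshold.

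Irf2 was at 7.11 and 7.20 in CT Ly6Chigh, 7.17 and 7.54 in CT Ly6Clow, 7.46 and 7.28 in T1DM, and 7.12 and 6.68 in T2DM libraries. Irf4 was at 7.22 and 7.48 in CT Ly6Chigh, 7.27 and 7.33 in CT Ly6Clow, 7.97 and 7.74 in T1DM, and 6.65 and 7.57 in T2DM libraries. For both the subsets overlapped. The log2FC over the mouse groups was 0.06 for Irf2 (SE 0.14, limma adjusted p = 0.785) and -0.15 for Irf4 (SE 0.18, limma adjusted p = 0.569), and the sign of Irf2 changed with either scaling and without T2DM, that of Irf4 without T2DM. Irf4 is also expressed in B cells and plasma cells, and B cell markers were higher in each Ly6Clow library, while Irf4 itself differed by 0.05 between the CT subsets. The part of those cells in its level was not tested.

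**Figure D2:**
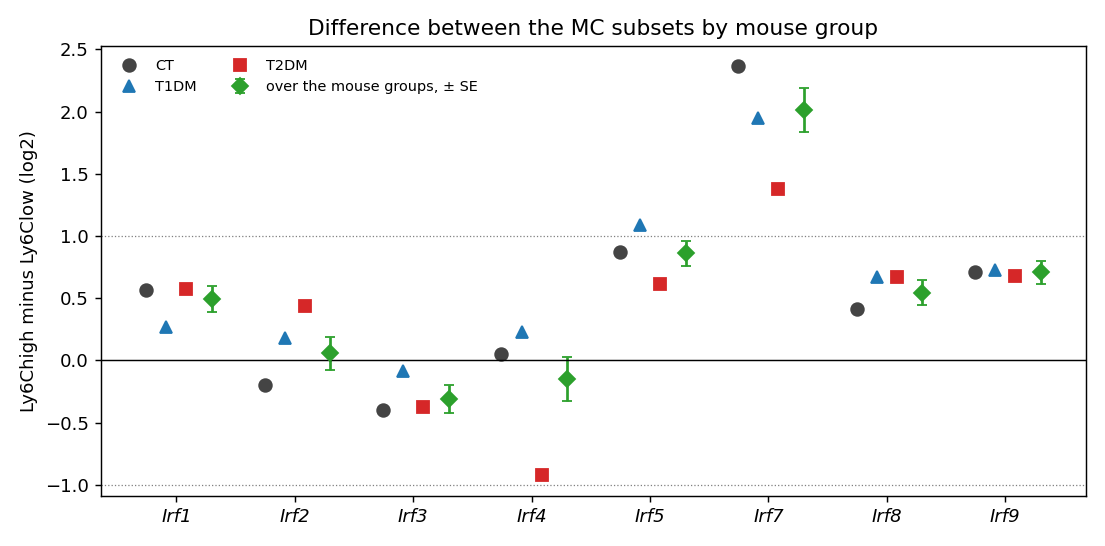
Ly6Chigh minus Ly6Clow difference (y axis, log2) of each Irf gene in CT (mean of 2 libraries per subset), T1DM and T2DM mice (1 library per subset), with the log2FC over the mouse groups and its SE as a diamond. Dotted lines mark a 2-fold difference, Irf7 was above it in all 3 mouse groups, and Irf4 in T2DM was at -0.92.

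Over the mouse groups 1 of 8 members was called, Irf7, against 12.1% of all genes. At an adjusted p under 0.01 of any size there were 5 of 8 members, all higher in Ly6Chigh MCs, against 11.4% of all genes higher and 20.3% in either direction. Irf5, Irf7 and Irf9 stayed under that limit in each alternative, whereas Irf1 and Irf8 did not. The members' median log2FC was 0.52 beside -0.08 over all genes. As deposited, all 4 Ly6Chigh libraries were above all 4 Ly6Clow libraries in 4 of 8 members, against 16.4% of all genes. These members were Irf1, Irf5, Irf7 and Irf8. In no member was it the other way round (32.8% of all genes in either direction). In Irf1 the lowest Ly6Chigh value was 6.32 and the highest Ly6Clow value 6.30. With the library sums made equal, the subsets would overlap in Irf1, Irf7 and Irf8. Scaling to equal totals lowered every Ly6Chigh minus Ly6Clow difference, with the median of all genes going from -0.09 to -0.37 in CT mice and from -0.08 to -0.38 over the mouse groups. Quantile normalization moved these medians to 0.02 and 0.04. With equal totals 207 genes were called higher and 360 lower in CT Ly6Chigh MCs in place of 346 and 235, and 503 and 1769 in place of 886 and 1115 over the mouse groups. The log2FC of Irf3 then was -0.61 over the mouse groups (limma adjusted p = 0.00347), while Irf1, Irf5, Irf7, Irf8 and Irf9 were still higher in Ly6Chigh MCs, with Irf1 going from 0.49 to 0.19 and Irf8 from 0.54 to 0.24. In T1DM alone Irf1 went from 0.27 to 0.0013.

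The subset difference within diabetic mice was then read from single libraries. Irf7 differed between Ly6Chigh and Ly6Clow MCs by 2.36 (log2) in CT mice, by 1.95 in T1DM mice and by 1.37 in T2DM mice, which are ratios of 5.15, 3.86 and 2.59. Irf5 passed 2-fold in T1DM (1.09) and not in T2DM (0.61). Thus 2 of 8 members were past 2-fold in T1DM, against 27.9% of all genes, and 1 of 8 in T2DM, against 29.1%. Irf4 was lower by 0.92 in Ly6Chigh than in Ly6Clow MCs of T2DM mice and higher by 0.23 in T1DM, where the sign turned with scaling (-0.0090 with quantile normalization and -0.0346 with equal totals). The test of whether the subset difference differs between diabetic (T1DM and T2DM as 1 group) and CT mice called 0 of 8 members and 0.0% of all genes with limma, with 0 members and 1084 (6.58%) of all genes at an unadjusted p under 0.05. For Irf7 the contrast was -0.70 (SE 0.69, limma adjusted p = 0.912). The spread in this test included the difference between T1DM and T2DM, so it cannot decide on either model alone.

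The second question was how the members differed in diabetic from CT MCs. In T2DM, Irf7 was 0.274 times its CT level in Ly6Chigh and 0.544 times in Ly6Clow MCs, Irf9 was 0.620 and 0.635 times its CT level, and Irf1 was 0.810 and 0.807 times. In T1DM, Irf7 was at 0.790 and 1.05 times, Irf9 at 1.10 and 1.08 times, and Irf1 at 0.961 and 1.18 times its CT level. Of these T1DM values Irf7 in Ly6Chigh (0.31 below both CT libraries, log2) and Irf1 in Ly6Clow MCs (0.21 above both) were outside by more than the gap between the CT libraries. Irf4 was above both CT libraries in T1DM, at 1.53 times the CT level in Ly6Chigh and 1.36 times in Ly6Clow MCs. In T2DM it was at 0.615 times the CT level in Ly6Chigh and at 1.21 times in Ly6Clow MCs.

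**Figure D3:**
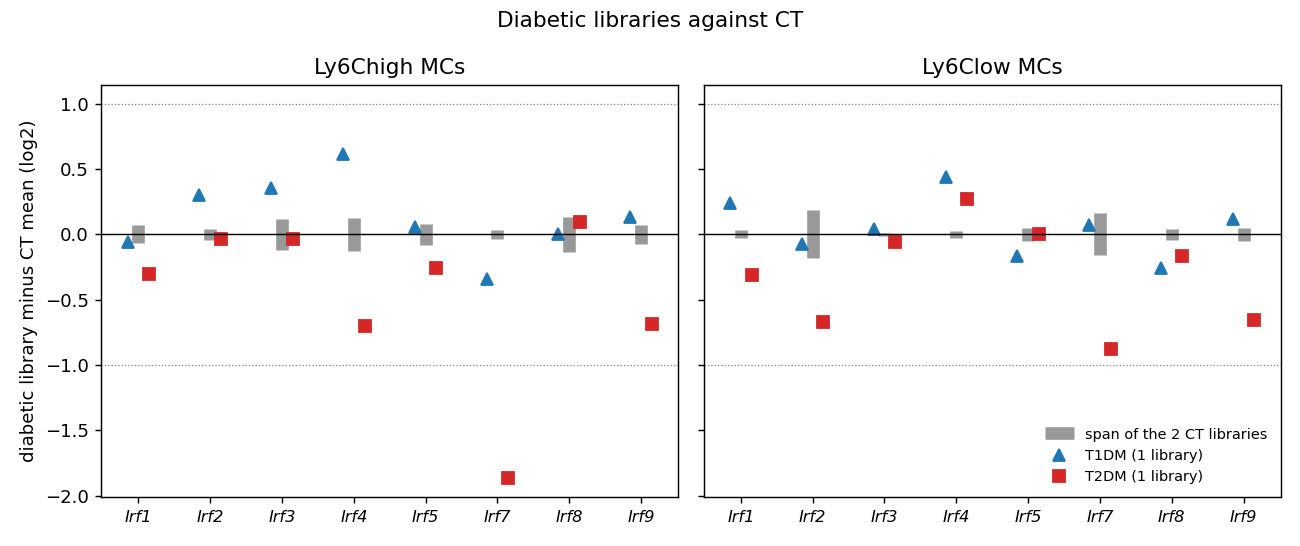
Diabetic library minus the CT mean (y axis, log2) of each Irf gene in Ly6Chigh (left) and Ly6Clow MCs (right), with 1 library per point. Grey bars span the 2 CT libraries and dotted lines mark a 2-fold difference, which Irf7 in T2DM Ly6Chigh MCs alone exceeded (-1.87).

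Irf7 in T2DM was lower than the CT mean by a difference of -1.87 (log2) in Ly6Chigh MCs, where the CT libraries were 0.07 apart, and of -0.88 in Ly6Clow MCs, where they were 0.32 apart. It was the 1 of 8 members past 2-fold in T2DM Ly6Chigh MCs, against 13.8% of all genes in either direction and 7.89% lower. In T2DM Ly6Clow MCs 0 of 8 members passed 2-fold (10.8% of all genes), and in T1DM 0 of 8 did in Ly6Chigh (10.1%) and in Ly6Clow MCs (8.81%). Irf9 in T2DM differed from the CT mean by -0.69 and -0.65 in Ly6Chigh and Ly6Clow MCs, against gaps of 0.15 and 0.10 between the CT libraries. Irf1 differed by -0.30 and -0.31, against gaps of 0.14 and 0.06.

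Set against the pair of CT libraries of its subset, T2DM was below both in 5 of 8 members in Ly6Chigh MCs (Irf1, Irf4, Irf5, Irf7 and Irf9, against 35.5% of all genes) and in 6 of 8 in Ly6Clow MCs (all but Irf4 and Irf5, against 37.0%). T1DM was above both CT libraries in 4 of 8 members in Ly6Chigh MCs (Irf2, Irf3, Irf4 and Irf9, against 36.3%) and in 4 of 8 in Ly6Clow MCs (Irf1, Irf3, Irf4 and Irf9, against 35.1%). It was below both in 1 member in Ly6Chigh (Irf7, against 33.5%) and in 2 members in Ly6Clow MCs (Irf5 and Irf8, against 34.9%). T2DM was above both in 0 members in Ly6Chigh (against 38.4%) and in 1 in Ly6Clow MCs (Irf4, against 34.5%). Outside both CT libraries by more than the gap between them, in either direction, were 4 of 8 members in T1DM Ly6Chigh (against 39.7% of all genes), 4 in T1DM Ly6Clow (39.1%), 5 in T2DM Ly6Chigh (45.3%) and 7 in T2DM Ly6Clow MCs (41.5%). Irf1, Irf7 and Irf9 were below both CT libraries and below T1DM in both subsets in T2DM, 3 of 8 members against 9.85% of all genes. The members' median difference from CT was -0.28 in T2DM Ly6Chigh and -0.24 in T2DM Ly6Clow MCs, beside 0.02 and -0.01 over all genes, and 0.09 and 0.06 in T1DM, beside 0.02 and 0.0032.

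The diabetic libraries came from the same sequencer, and T2DM was therefore also set against T1DM. The models differ in STZ, in the leptin receptor mutation and perhaps in strain, which cannot be told apart. Irf7 differed by -1.53 (log2) in Ly6Chigh and by -0.95 in Ly6Clow MCs, and Irf9 by -0.82 and -0.77. Irf4 differed by -1.32 in Ly6Chigh but by -0.17 in Ly6Clow MCs. Irf7 and Irf4 were the 2 of 8 members past 2-fold in Ly6Chigh MCs, against 19.3% of all genes, and 0 of 8 passed it in Ly6Clow MCs, against 15.3%. Irf8 differed by 0.09 in each subset, beside gaps between the CT duplicates of 0.27 in Ly6Chigh and 0.0867 in Ly6Clow MCs. These differences and those from CT share the T2DM libraries.

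With T1DM and T2DM as 1 diabetic group, the spread in the test against CT included the difference between these models. The test therefore cannot decide whether a member differed from CT in a single model. It called 0 of 8 members in Ly6Chigh and 0 of 8 in Ly6Clow MCs, and 0.0% of all genes in either, with limma. At an unadjusted p under 0.05 there were 0 members in both and 739 (4.48%) and 489 (2.97%) of all genes. Irf7 had a log2FC of -1.10 in Ly6Chigh MCs (SE 0.49, limma adjusted p = 0.999) and of -0.40 in Ly6Clow MCs (SE 0.49, limma adjusted p = 0.9999). Without T1DM, the lone T2DM library being taken to vary like the other groups, the Irf7 log2FC in Ly6Chigh MCs was -1.87 (SE 0.18, limma adjusted p = 0.0612), and without T2DM it was -0.34. In Ly6Clow MCs it was -0.88 without T1DM and 0.07 without T2DM. In the deposited values the CT mean minus the diabetic mean had an SD over genes of 0.272, beside 0.743 for T1DM minus T2DM, and no value was equal between a CT and a diabetic library although many were within each set. The first SD is of means over more libraries than the second, which alone lowers it. Neither SD shows how far a single member differed from CT in both models.

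The order of the groups was the same for Irf1 and Irf7, with CT Ly6Chigh highest, then T1DM Ly6Chigh, T2DM Ly6Chigh, T1DM Ly6Clow, CT Ly6Clow and T2DM Ly6Clow. In Irf1 neighbours in this order were apart by less than the wider CT gap (0.14) between CT and T1DM Ly6Chigh and between T2DM Ly6Chigh and T1DM Ly6Clow. In Irf7 they were so between T1DM and CT Ly6Clow MCs. Irf5 and Irf9 had T1DM and CT Ly6Chigh at the top, apart by less than the wider CT gap, and Irf9 had T2DM Ly6Clow at the bottom, whereas Irf5 had T1DM Ly6Clow there. In Irf8 the drop from the 3 Ly6Chigh groups to the 3 Ly6Clow groups was the 1 of 5 drops wider than that gap. Irf4 had 1 such drop, from CT Ly6Clow down to T2DM Ly6Chigh at the bottom. Irf2 had it at the bottom too, from T2DM Ly6Chigh to T2DM Ly6Clow, and Irf3 between T2DM Ly6Clow and CT Ly6Chigh. Over the 8 libraries Irf7 correlated with Irf9 (Pearson r 0.953) and Irf1 (0.937), Irf1 with Irf9 (0.933), and Irf5 with Irf8 (0.922). These are descriptions over 8 libraries that fall into the subsets, and no test was made.

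The genes most like each member were sought among 2266 genes with a mean of at least 3 and an SD of at least 0.5 (log2) over the 8 libraries. Irf7 was most like Gm21370 (r 0.993), Parp14 (0.992), an interferon-induced ADP-ribosyltransferase gene, and Epsti1 (0.985). The genes most like Irf9 included Ifi47 (0.992) and Ifi27l2a (0.985), and Irf1 was most like Cmpk2 (0.963), Pros1 (0.961) and Bri3 (0.960).

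Irf5 was most like Tcirg1 (0.993), a subunit of the lysosomal proton pump, Trex1 (0.992), an exonuclease that clears cytosolic DNA, and Tgfb1 (0.989). Irf8 was most like Coa4 (0.995), Abhd5 (0.987) and Ptov1 (0.978). The highest correlations of Irf4 and Irf2 with any of these genes were below those of the other members. Irf4 was most like Mrc1 (0.912), the mannose receptor gene, Rnf150 (0.907) and Arhgap39 (0.897), Irf2 like Gbp7 (0.915), Kctd1 (0.894) and Atp2b4 (0.876), and Irf3 like Ttpal (0.968), Gm48365 (0.967) and Zfp318 (0.948).

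The pathway around the members was described with lists of ligands, receptors, sensors, partners and targets. Of 10 listed interferon ligand genes 2 were among the genes with a value, and 1 of them was called over the mouse groups. Ifng, made by NK and T cells, was at -1.95 and -1.94 in CT Ly6Chigh and 1.45 and 1.21 in CT Ly6Clow libraries, with -0.68 in T2DM Ly6Clow MCs. Its log2FC over the mouse groups was -2.97 (SE 0.46, limma adjusted p = 0.00122), and it depends on where low values were set, since T1DM and T2DM Ly6Chigh MCs both read -2.25. Ifnk was between 0.50 and 1.55 in all libraries.

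Of 6 receptor genes 2 were called higher in Ly6Chigh MCs over the mouse groups and none lower. Of all genes 5.37% were called higher and 12.1% in either direction. The median log2FC of the 6 was 0.64 beside -0.08 over all genes. The called genes were Ifngr2 (1.12), a chain of the interferon gamma receptor, and Ifnar2 (1.01), a chain of the type I receptor. In T2DM Ly6Chigh MCs 0 of the 6 were past 2-fold lower than CT, against 7.89% of all genes. Of 6 JAK-STAT genes 0 were called over the mouse groups. The log2FC was 0.35 for Stat3, -0.11 for Jak1 and -0.35 for Jak2. In T2DM Ly6Chigh MCs the log2 difference from CT was -1.58 for Stat2, a partner of Irf9 in ISGF3, which is named here after its values were seen. In T2DM Ly6Clow MCs it was 0.43, with Stat2 at 6.50 beside 6.38 and 5.76 in the CT Ly6Clow libraries. Stat2 was thus above both CT libraries there by less than the gap between them. Irf9 was below CT in both subsets.

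Of 22 sensors and adaptors that act upstream of IRFs, 6 were called higher in Ly6Chigh MCs and 0 lower. Of all genes 5.37% were called higher and 12.1% in either direction. Dhx58 (1.66) and Ifih1 (1.29) encode cytosolic RNA sensors, Tlr8 (1.12) an endosomal receptor, and Myd88 (1.46) the adaptor through which Toll-like receptors reach Irf5 and Irf7. Ifih1 was past 2-fold lower in T2DM than in CT Ly6Chigh MCs (-1.33), the 1 of 22 that was, against 7.89% of all genes. Of 10 partners and cofactors 1 was called higher, Batf3 (1.56), a partner of Irf8, and 2 lower, Spib (-4.47) and Ikzf3 (-4.11), which are transcription factors of B cells. Of 6 negative regulators 0 were called. Their log2FC was 0.70 for Ptpn6, -0.23 for Ptpn11, -0.06 for Pias1 and 0.24 for Socs3.

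Type I interferon-stimulated genes, the targets of ISGF3 and Irf7, were mostly higher in Ly6Chigh MCs, and much less so in T2DM mice. Of 16 genes 13 were called higher in Ly6Chigh MCs over the mouse groups, against 5.37% of all genes, and 0 lower. The median log2FC was 1.73, and the largest were Cxcl10 (3.55), Ifit3 (2.50), Oas2 (2.16) and Mx2 (2.11). By mouse group the median Ly6Chigh minus Ly6Clow difference was 2.28 in CT, 2.23 in T1DM (14 of 16 past 2-fold higher) and 0.41 in T2DM (2 of 16). Whether these differ was not tested for the list. In T2DM Ly6Chigh MCs all 16 were below the CT mean and 16 of 16 past 2-fold, beside 7.89% of all genes, with a median difference of -2.13. Ifit3 was at 5.64 and 5.72 in the Ly6Chigh libraries of CT, at 6.16 in that of T1DM and at 2.36 in that of T2DM mice, and at 2.77, 2.93, 2.23 and 1.94 in the Ly6Clow libraries in the same order. The T2DM Ly6Chigh library thus fell among the Ly6Clow libraries for Ifit3. For Irf7 it was at 5.39 as deposited, above the highest Ly6Clow value of 5.06. With the library sums made equal, it would fall among the Ly6Clow libraries for Irf7 too. In T2DM Ly6Clow MCs 4 of 16 were past 2-fold lower, beside 5.68% of all genes, with a median of -0.65. In T1DM the medians were 0.02 in Ly6Chigh and 0.16 in Ly6Clow MCs, with 1 of 16 past 2-fold lower in each. Of all genes 4.94% and 4.78% were past 2-fold lower there.

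Of 12 interferon gamma-inducible genes 2 were called higher in Ly6Chigh MCs over the mouse groups, Ifi47 (1.55) and Irgm1 (1.26). Another 2 were called lower, Cd274 (-2.60), which encodes PD-L1, and Gbp4 (-1.79). Of all genes 5.37% were called higher and 12.1% in either direction. In T2DM Ly6Chigh MCs all 12 were below the CT mean and 8 past 2-fold lower (7.89% of all genes), with a median of -1.19. In T2DM Ly6Clow MCs 4 of 12 were past 2-fold lower (5.68% of all genes), with a median of -0.48. Cd274 was at 4.72 and 5.10 in the Ly6Chigh libraries of CT, at 3.96 in that of T1DM and at 4.30 in that of T2DM mice, and at 6.92, 6.98, 7.03 and 7.55 in the Ly6Clow libraries, higher in T2DM than in CT in the latter.

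**Figure D4:**
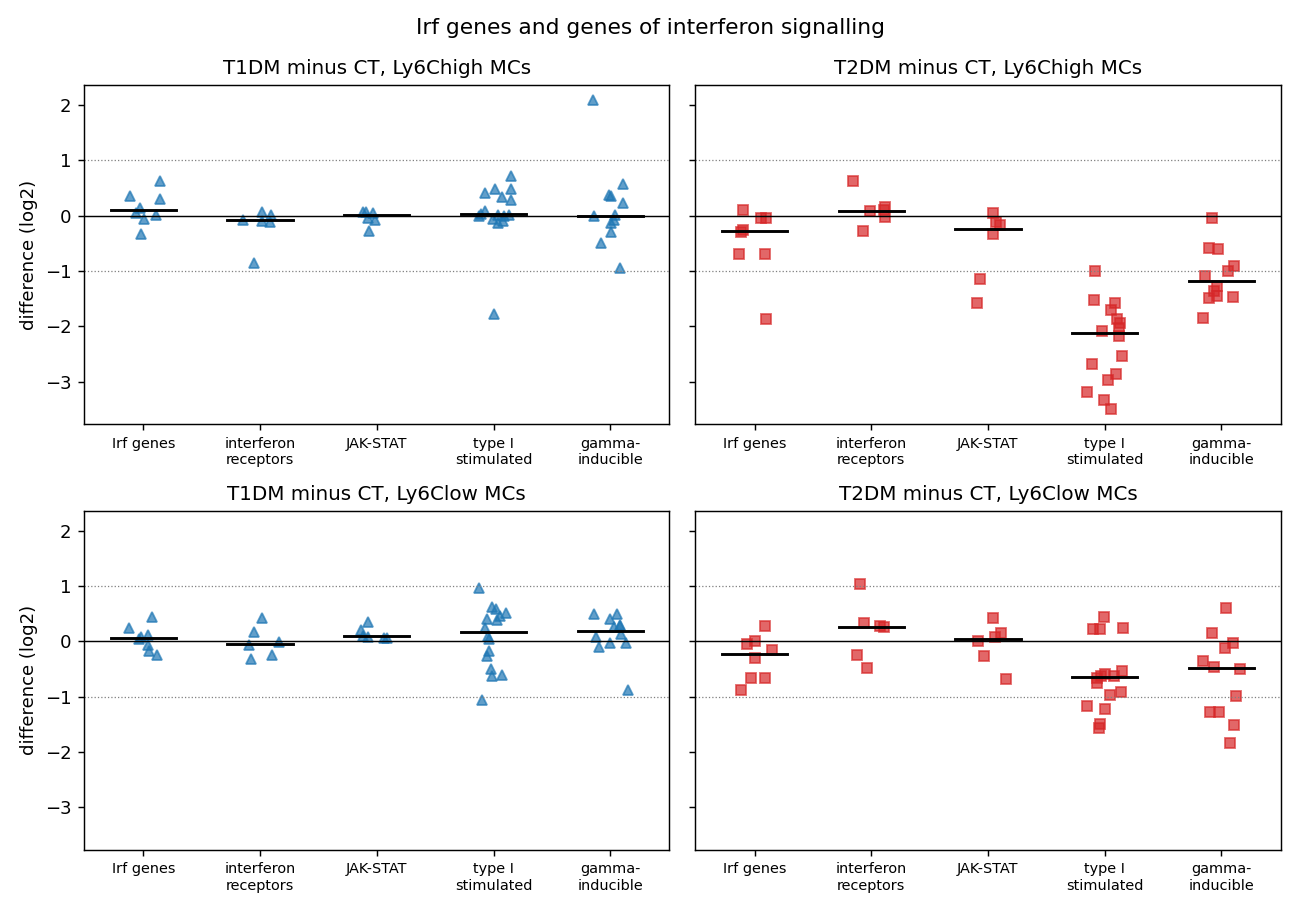
Diabetic library minus CT mean (y axis, log2) for the genes of 5 lists in each subset, with 1 point per gene, a black line at the list's median and dotted lines at a 2-fold difference. The 16 type I interferon-stimulated genes have a median of -2.13 in T2DM Ly6Chigh MCs and of 0.02 in T1DM Ly6Chigh MCs.

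Markers of other cells moved with the T2DM libraries as well. All 8 NK cell markers were past 2-fold lower than CT in T2DM Ly6Chigh (7.89% of all genes) and in T2DM Ly6Clow MCs (5.68%). Their medians were -1.75 and -2.43. In T1DM 0 of 8 were lower, against 47.9% of all genes in Ly6Chigh and 49.7% in Ly6Clow MCs. Classical MC markers were past 2-fold higher in T2DM Ly6Chigh MCs in 7 of 10 genes (5.96% of all genes), and nonclassical markers past 2-fold lower in 7 of 10 (7.89%). B cell markers were lower in 11 of 12 genes there (48.0% of all genes), with a median of -0.67. The 6 markers of plasmacytoid dendritic cells, which express Irf7 and Irf8 strongly, had a median of -0.52. Their defining marker Siglech was between -0.02 and 0.98 in all libraries. For plasma cells the median in T2DM Ly6Chigh MCs was -1.19, for conventional dendritic cells -0.53, for T cells -0.69, for neutrophils 1.44, for eosinophils -0.63 and for platelets -0.98. In T2DM Ly6Clow MCs classical MC markers were past 2-fold higher than CT in 5 of 10 genes and neutrophil markers in 4 of 5 (5.09% of all genes). The median there was 2.22 for neutrophils, 1.10 for eosinophils, 0.67 for conventional and 0.09 for plasmacytoid dendritic cells. It was 0.38 for B cells, 0.21 for plasma cells, 0.23 for T cells, 0.17 for nonclassical MCs and -0.26 for platelets. The part of these cells in the lower Irf7, Irf9 and Irf1 values of T2DM was not tested.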

How the data were processed

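RNA-Seq of 8 libraries of sorted blood MCs was analysed, with groups taken from the sample labels. Kallisto 0.45 was used by the authors for quantification, tximport 1.12.3 (run under R 3.6.1) for gene summaries, and the normalized log2 values they deposited cover 16486 genes. The submitters' processing notes name build mm10. How libraries were scaled, low genes filtered and strand used, and whether CT and diabetic libraries were adjusted to each other, is not given in the sources used here. The deposited values hold no counts, so depth is unknown and no counting error can be given.

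The deposited log2 values were used without a pseudocount. Tests were made with limma (version 3.58.1, lmFit and eBayes with trend) in R 4.3.3 on all genes, with Benjamini-Hochberg adjustment, with calls at an adjusted p under 0.01 together with a log2FC beyond 1 in either direction. CT Ly6Chigh and Ly6Clow MCs were compared in the 4 CT libraries, the subsets in all 8 with a covariate for mouse group, and diabetic with CT MCs, with the interaction, in a fit of subset by CT or diabetic. Comparisons with 1 library on a side were given as log2 differences, with genes past 2-fold counted. The limma fits were first tested on simulated data.

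The members were set by gene symbol with no value in the rule, but they, the lists and the tests were chosen with earlier results of these data known. From each list up to 4 genes were named, those called over the mouse groups with the largest log2FC (where fewer than 2 were called, those with the highest mean), plus for each member the 3 genes with the highest Pearson r. Promoters came from RefSeq (GRCm38.p6) and annotation and transcripts from GENCODE M21. Their build matches mm10, and all 8 symbols matched.

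Alternatives tried were restriction to 12527 genes whose mean log2 was 1 or more, 1 added on the linear scale, quantile normalization, scaling to equal totals, no trend, an adjusted p limit of 0.05, a replicate block, and omission of single CT libraries or of a diabetic model. Python 3.11.15 with numpy 2.4.6, pandas 2.3.3 and matplotlib 3.10.9 made tables and figures. Some genes of the lists entered their counts and medians and are not reported by name here.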

Additional observations from a re-analysis of the deposited data

Results flagged for a closer look

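Some members differed from CT in opposite directions in T1DM and T2DM, or in opposite directions in the 2 subsets. Each such pair rests on 1 diabetic library per side, was flagged because all libraries of one group lay above and all of the other below their reference, and the difference itself was not tested. All values are log2 differences. Over all genes the CT mean minus the diabetic mean had an SD of 0.272, beside 0.743 for T1DM minus T2DM. Whether CT and diabetic values were adjusted to each other is not given in the sources used here, and its part in these opposite directions was not tested.

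In Ly6Chigh MCs, Irf4 was 0.62 above the CT mean in T1DM and at -0.70 against it in T2DM. Irf9 was 0.13 above in T1DM and at -0.69 in T2DM there. These were 2 of 8 members, and 25.9% of all genes showed such a pattern. In Ly6Clow MCs, Irf9 was 0.12 above the CT mean in T1DM and at -0.65 in T2DM, Irf1 was 0.24 above and at -0.31, and Irf3 was 0.0398 above and at -0.0575, 3 of 8 members against 24.2% of all genes. The CT Ly6Clow duplicates of Irf3 were 0.0266 apart, and its T1DM value turned to -0.0225 with quantile normalization and -0.0264 with equal totals.

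Irf4 also differed between the subsets. T2DM minus CT was -0.70 in Ly6Chigh and 0.27 in Ly6Clow MCs, as in 27.9% of all genes. Ly6Chigh minus Ly6Clow was 0.23 in T1DM and -0.92 in T2DM, as in 28.6% of all genes, and the T1DM value turned to -0.0090 with quantile normalization and -0.0346 with equal totals, so that the opposite signs were lost.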

How the results depend on the processing

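Over the mouse groups, 1 member (Irf7) was called in each alternative. In CT mice the count of 1 went to 0 without the trend and with the replicate number as a block, and was 0 to 0 when each CT library was left out. In these fits limma called 0 of 16486 genes in place of 581, with between 4651 and 5810 at an unadjusted p under 0.05, and fewer residual degrees of freedom remained in the block and left-out fits. With low genes removed 1089 genes were called and with an adjusted p limit of 0.05 1936. Deviations of same-numbered CT libraries did not move together (correlation 0.0089). This cannot decide whether the numbers pair the samples, since the duplicates may be technical. The block changed no other call among the members.

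Some signs reversed. Irf4 in CT mice went from 0.05 to -0.21 with quantile normalization, -0.23 with equal totals and ran from -0.0759 (without CT Ly6Chigh replicate 2) to 0.182 with CT libraries left out, and over the mouse groups from -0.15 to 0.11 without T2DM. Irf2 over the mouse groups went from 0.06 to -0.18 with quantile normalization, -0.24 with equal totals and -0.0701 without T2DM. Irf7 in diabetic against CT Ly6Clow MCs went from -0.40 to 0.0738 without T2DM. With quantile normalization and with equal totals, Ly6Chigh minus Ly6Clow in T1DM went from 0.18 to -0.0208 and -0.0864 for Irf2 and from 0.23 to -0.0090 and -0.0346 for Irf4. The cause was not tested beyond what the left-out libraries show.

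Among single-library counts of members past 2-fold, T2DM minus CT in Ly6Clow went from 0 to 1 without CT Ly6Clow replicate 1 (range 0 to 1). T2DM minus T1DM in Ly6Clow went from 0 to 1 with quantile normalization. Ly6Chigh minus Ly6Clow went from 2 to 1 in T1DM and from 1 to 2 in T2DM, both with quantile normalization and with equal totals. No group has more than 2 libraries, and no search for outlying libraries was possible.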
